A study of Mus musculus with 6 samples.

Results

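The miRNAs miR-191, miR-425 and miR-423 are often used as references to which the levels of other miRNAs are scaled. Both mature arms of each hairpin, 6 miRNAs, were taken by name from a table of 1907 distinct mature miRNAs measured by small RNA sequencing of mouse liver. The animals were 12-week-old C57BL/6N littermates in normal health on a standard chow diet, 3 females and 3 males, with no treatment and no altered allele in the labels. The series concerns SAB, a mitochondrial outer membrane protein, and acute liver injury that differs between the sexes. The question asked of these 6 miRNAs was how steady they were over the 6 libraries, whether they differed between females and males, and what the comparison of the sexes read when libraries were scaled on them.

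A miRNA hairpin is cut by Drosha in the nucleus and by Dicer in the cytoplasm, and 1 arm of the resulting duplex is usually kept in an Argonaute protein, where its seed (bases 2 to 8) pairs with target mRNAs. The arm that is kept and the arm that is mostly lost are named by their side of the hairpin, 5p and 3p. Reference miRNAs are chosen because they are found in most tissues and are thought to vary little. A scale built on them carries their own variation into every other value.

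The hairpins are shown because the results turn on their arms. In the 3 hairpins below, from RefSeq on GRCm38.p6, capitals mark the mature 5p and 3p arms in that order.
Mir191: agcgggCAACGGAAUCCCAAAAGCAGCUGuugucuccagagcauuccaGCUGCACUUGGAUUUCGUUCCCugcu
Mir425: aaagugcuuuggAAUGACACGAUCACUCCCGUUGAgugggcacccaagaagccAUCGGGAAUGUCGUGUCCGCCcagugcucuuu
Mir423: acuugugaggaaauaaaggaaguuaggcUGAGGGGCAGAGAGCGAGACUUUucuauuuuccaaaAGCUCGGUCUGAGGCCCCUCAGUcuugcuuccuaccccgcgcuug

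The 6 mature sequences, with the seed in capitals, show that no seed is shared among them, so they are not a seed family.
miR-191-5p: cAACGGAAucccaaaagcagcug
miR-191-3p: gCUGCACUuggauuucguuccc
miR-425-5p: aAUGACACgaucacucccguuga
miR-425-3p: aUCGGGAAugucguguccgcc
miR-423-5p: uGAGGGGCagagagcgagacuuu
miR-423-3p: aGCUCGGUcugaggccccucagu

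All 6 names matched the RefSeq table, at the positions the deposited table gives. Each sequence came from 1 locus there, and the nearest other mature miRNA was at least 7 edits away, so that table holds no near-identical miRNA for any of the 6. Outside the group, miR-489-3p has the seed of miR-425-5p and was listed at 0 in all 6 libraries. The seed of miR-423-5p recurs in miR-6921-5p, which had between 0 and 2 counts in a library.

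Mir191 (chromosome 9, 108568319 to 108568392, plus strand, mm10) and Mir425 (108568777 to 108568861, plus strand) lie 384 bases apart. Both are usually described as hairpins of Dalrd3. In GENCODE M21 both overlap an exon of the long non-coding RNA 4833445I07Rik (108567533 to 108569174), and Dalrd3 begins 1024 bases after Mir425. The RefSeq span of Dalrd3, 108567484 to 108572773, holds both. GENCODE also lists a small RNA gene, Gm24083, on the minus strand over Mir191. Mir423 (chromosome 11, 77078064 to 77078172, minus strand) lies in an intron of Nsrp1, a gene for a splicing regulator.

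Total counts were 5756419, 3506852 and 3285249 in female and 6426337, 4617645 and 16444675 in male libraries. Levels below are counts scaled to 1000000 (CPM) on library sizes adjusted by the trimmed mean of M-values (TMM). The hepatocyte miRNAs of the marker list, miR-122-5p among them, summed to 395228 to 398337 CPM in females and 420958 to 465960 CPM in males. Most of this sum was miR-122-5p, with means of 315746 CPM in females and 363970 CPM in males. The rest of the list went both ways. Log2 fold changes, female over male, were 0.44 for miR-122-3p, 0.17 for miR-194-5p, 0.02 for miR-192-5p and -0.18 for miR-148a-3p. These were named after their values were seen. Stromal markers summed to 8916 to 11436 CPM in females and 12108 to 12796 CPM in males, and all 5 were above 0 in every library. The ranges of the sexes overlapped for the leukocyte, erythroid and biliary lists. In edgeR, 1 of the 5 leukocyte markers was called and 0 in each other list, beside 6.76% of all tested miRNAs. The called marker, miR-223-3p, was higher in females (log2 fold change 0.62, adjusted p = 0.0467, edgeR). In bulk liver, fewer cells of a type and less RNA per cell cannot be told apart, and the part of cell makeup in the values below was not tested. The first principal component held 51.3% of the variance and separated the sexes. Females lay at -2.37, -6.19 and -5.33 on it, and males at 1.96, 8.49 and 3.44. Male replicate 2 lay farthest out on this component. For several results below, values are also given without male replicate 2.

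The 5p arm of miR-191 was by far the most abundant of the 6 and the one that varied least. Its level was 3622, 3612 and 3759 CPM in the females and 3751, 4249 and 3712 CPM in the males. Male replicate 2 was the highest library, the other 5 lay within a narrow band, and the sexes overlapped. That order rests on the TMM sizes, where the factor of male replicate 2 was the lowest (0.917). On total counts female replicate 3 was the highest, at 4015 CPM, with male replicate 2 at 3898 CPM. It ranked 26th by level among the 370 tested miRNAs and took between 0.355 and 0.401% of the counts of a library, which is 13052 to 58452 counts. Its 3p arm, the arm that is mostly lost, had 21 to 125 counts. The levels of miR-191-3p were 6.44, 5.81 and 9.69 CPM in females and 6.65, 12.0 and 7.94 CPM in males, with male replicate 2 again highest.

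The neighbour miR-425-5p stood at 362, 380 and 375 CPM in females and 319, 387 and 282 CPM in males. The females lay close together, while the males held both the highest and the lowest library. Its 3p arm had 36 to 175 counts, at 11.1, 9.96 and 13.4 CPM in females and 10.9, 11.6 and 11.1 CPM in males. For miR-425-3p it was the males that lay close together, inside the range of the females.

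The arms of miR-423 were the only pair of comparable level. For miR-423-5p the values were 67.7, 53.7 and 73.3 CPM in females and 63.1, 106 and 62.6 CPM in males. Male replicate 2 stood well above the other 5 libraries, and female replicate 2 was the lowest. For miR-423-3p they were 47.7, 44.0 and 59.6 CPM in females and 48.4, 70.6 and 42.0 CPM in males. Male replicate 2 was again the highest and female replicate 3 the next. The mature forms are between 21 and 23 bases long, so length changes these comparisons of level little.

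**Figure D1:**
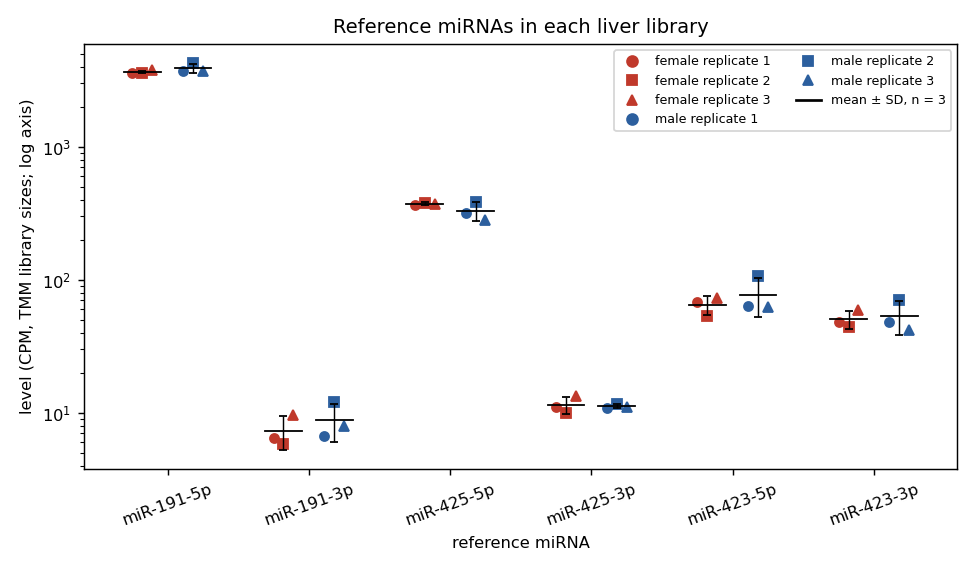
Level of each reference miRNA in each library in CPM on TMM library sizes (log axis), with the mean and SD of each sex (n = 3 each). On these sizes miR-191-5p lies between 3612 and 4249 CPM, the sexes overlap for all 6 miRNAs, and male replicate 2 (blue square) is the highest library for 5 of the 6.

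None of the 6 differed between females and males in the test. In edgeR's quasi-likelihood test with Benjamini-Hochberg adjustment over 370 tested miRNAs, 0 of 6 passed the threshold of 0.05, and 0 of 6 had an unadjusted p under 0.05. The DESeq2 Wald test and limma-voom also called 0 of 6. The background was 6.76% of the tested miRNAs called (25 of 370), so a count of 0 among 6 is near what that share gives. On TMM sizes the sexes did not overlap for 0 of 6, against 21.6% of all tested miRNAs. On total counts, however, every female was above every male for miR-425-5p. There the lowest female stood at 381.0 CPM and the highest male at 354.7 CPM (log2 fold change 0.32, adjusted p = 0.229, edgeR). The median log2 fold change of the 6, female over male, was -0.09, beside -0.01 over all tested miRNAs.

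The size of difference that the data leave possible varied widely among the 6. For miR-191-5p the log2 fold change came to -0.09 (edgeR: SE 0.10, adjusted p = 0.705), and the 95% interval of the difference ran from -19.2 to 9.06%, relative to the male level. The female mean was 3665 ± 82.2 CPM and the male mean 3904 ± 299 CPM (SD, n = 3 each). Without male replicate 2 the log2 fold change of miR-191-5p was -0.02. For miR-425-5p the log2 fold change came to 0.18 (edgeR: SE 0.15, adjusted p = 0.629), with an interval from -10.2 to 42.7%. Its means were 372 ± 9.26 and 329 ± 53.2 CPM (SD, n = 3 each). The interval of miR-191-5p was thus the narrowest of the 6.

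For miR-423-5p the log2 fold change came to -0.25 (edgeR: SE 0.24, adjusted p = 0.686), with a female mean of 64.9 ± 10.1 CPM and a male mean of 77.4 ± 25.2 CPM (SD, n = 3 each). Its interval, -41.4 to 21.1%, does not exclude a level in females well under that in males. For miR-423-3p the log2 fold change came to -0.08 (edgeR: SE 0.24, adjusted p = 0.894), with an interval from -33.9 to 35.0%. The signs of both rested on male replicate 2: without it, log2 fold changes were 0.05 for miR-423-5p and 0.17 for miR-423-3p. The sign of miR-191-5p and of miR-423-3p also turned when total counts replaced TMM sizes, to 0.05 and 0.07; that scaling moved the median of all tested miRNAs by 0.14.

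Of the low arms, miR-191-3p had the widest interval of the 6 on the log2 scale. The interval was -47.2 to 31.8% for miR-191-3p (log2 fold change -0.26, SE 0.30; adjusted p = 0.723, edgeR) and -26.5 to 42.5% for miR-425-3p (0.03, SE 0.22; adjusted p = 0.963, edgeR). Without male replicate 2 the value of miR-191-3p was -0.02 and that of miR-425-5p 0.31 (adjusted p = 0.991 and 0.208, edgeR). The p of 0.208 is the smallest that any setting tried gave for miR-425-5p.

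**Figure D2:**
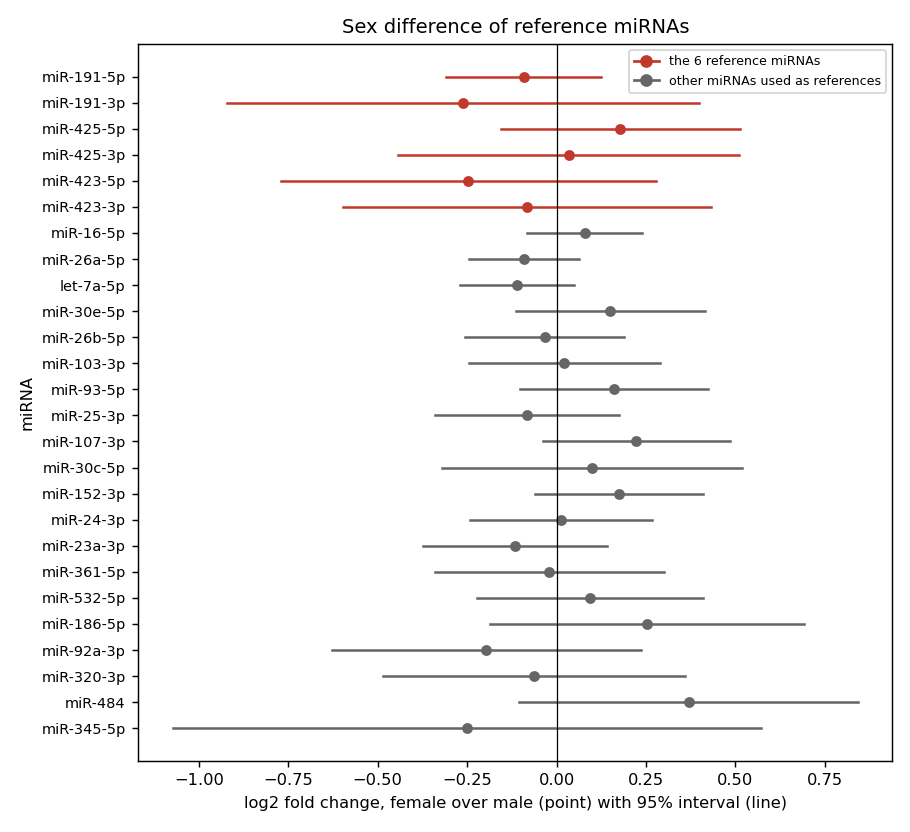
Log2 fold change, female over male, with its 95% interval from edgeR, for the 6 reference miRNAs (red) and 20 other miRNAs used as references (grey, ordered by level). All 26 intervals cross 0, and that of miR-191-5p, from -0.31 to 0.13, is the narrowest among the 6.

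The 6 miRNAs differed widely in how steady they were over the 6 libraries. The SD of log2 CPM was 0.09 for miR-191-5p, 0.14 for miR-425-3p, 0.18 for miR-425-5p, 0.28 for miR-423-3p, 0.34 for miR-423-5p and 0.39 for miR-191-3p. Over all 370 tested miRNAs the median was 0.30, and the 6 took ranks 16, 49, 87, 170, 207 and 237, counted from the smallest SD. Both arms of miR-423 thus lay near the middle of all tested miRNAs. Among the 114 miRNAs with a mean of at least 100 CPM, miR-191-5p ranked 15th and miR-425-5p 56th, and their median was 0.18. These ranks describe the 6 libraries and carry no test.

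The highest library was 1.18 times the lowest for miR-191-5p, 1.37 times for miR-425-5p, 1.68 times for miR-423-3p and 1.98 times for miR-423-5p. Counting error alone, 1 over the square root of the count, would give a coefficient of variation (CV) of 5.36% for miR-423-5p, where 26.0% was measured. For miR-191-5p it would give 0.722% beside a measured 6.24%. For miR-425-3p it would give 13.2%, above the measured 10.05%, so its spread was not detectable over counting error at this depth. For miR-191-3p the counting CV was 16.03% and the measured CV 29.3%. These counting values take reads as independent molecules, which reads copied by PCR are not.

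Single libraries decided several of these spreads. Without male replicate 2 the SD fell to 0.03 for miR-191-5p and to 0.17 for miR-423-5p, and for miR-423-3p it was 0.19. Without male replicate 3 the SD of miR-425-5p was 0.11, and without female replicate 3 that of miR-425-3p was 0.08. The spread of miR-425-5p thus came from another library than that of miR-191-5p.

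**Figure D3:**
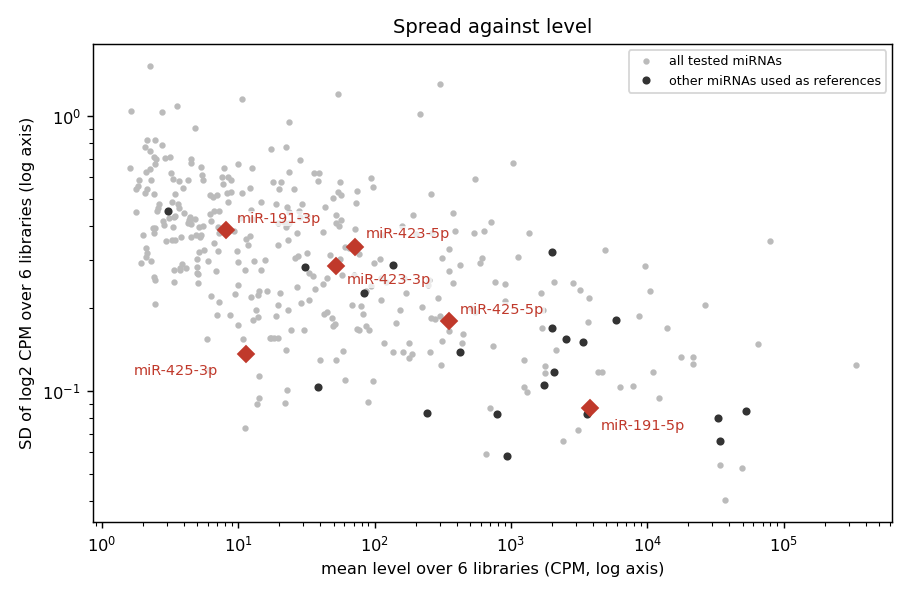
SD of log2 CPM over the 6 libraries against mean level, both on log axes, for all 370 tested miRNAs (grey), the 6 reference miRNAs (red diamonds) and 20 other miRNAs used as references (black). miR-191-5p sits low at 0.09, while both miR-423 arms, at 0.28 and 0.34, lie within the grey cloud at their level.

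The ratio of arms and of neighbours needs no scaling, since both counts come from the same library. The 5p arm held 99.7 to 99.8% of the reads of miR-191 and 96.2 to 97.4% of those of miR-425, but only 55.0 to 60.1% of those of miR-423. The log2 ratio of 5p to 3p of miR-423 was 0.50, 0.29 and 0.30 in females and 0.38, 0.59 and 0.57 in males. Female replicate 1 lay among the males. The difference of the means was -0.15 (0.36 ± 0.12 in females, 0.52 ± 0.12 in males, SD, n = 3 each; exact two-sided permutation p = 0.2, adjusted over 4 ratios 0.4). For miR-191 the difference was 0.17 and for miR-425 it was 0.16, with exact p of 0.6 and 0.5 (both 0.6 adjusted over the 4 ratios). Without male replicate 2 the difference for miR-191 was -0.01.

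The neighbours miR-191-5p and miR-425-5p stood in a ratio that was lower in every female than in every male. Per library, miR-191-5p had between 9.50 and 10.04 times the reads of miR-425-5p in females and between 10.99 and 13.2 times in males. The log2 ratios were 3.32, 3.25 and 3.33 in females and 3.55, 3.46 and 3.72 in males. The sexes did not overlap, as was the case for 25.3% of the ratios between any 2 tested miRNAs. Their means were 3.30 ± 0.04 and 3.58 ± 0.13 (SD, n = 3 each), a difference of -0.28 with an exact two-sided permutation p of 0.1. That is the smallest p that 3 animals against 3 allow, and adjusted over the 4 ratios it was 0.4. The difference stayed between -0.34 and -0.21 when each library was left out in turn. With libraries scaled on miR-191-5p, edgeR gave miR-425-5p a log2 fold change of 0.28 (SE 0.15; adjusted p = 0.35), so the difference did not pass in that fit.

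Over all 15 pairs of the 6, the SD of the log2 ratio over libraries ran from 0.14 for the arms of miR-423 to 0.39 for miR-191-3p with miR-425-5p. It was 0.18 for the neighbours miR-191-5p and miR-425-5p and 0.26 for miR-191-5p with miR-423-5p. The sexes did not overlap in 2 of the 15 ratios, miR-191-5p to miR-425-5p and miR-425-5p to miR-423-5p. Over the ratios of all pairs of tested miRNAs they did not overlap in 25.3%, so 2 of 15 is no more than the background.

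For 4 of the 6, a miRNA outside the group kept a steadier ratio to it than any of the other 5 did; the outsider is the best of 113 or 114, so its smaller SD is partly set by the choice. By this SD, the miRNAs of at least 100 CPM most like miR-191-5p were let-7b-5p (0.06), let-7j (0.06) and miR-221-3p (0.07), where the median over 113 miRNAs was 0.20. Its neighbour miR-425-5p ranked 43rd of 113. Most like miR-425-5p were miR-361-3p (0.08), miR-107-3p (0.09) and miR-16-5p (0.11). Most like miR-425-3p were let-7d-5p (0.08), miR-378d (0.12) and miR-23b-3p (0.12). For miR-423-3p they were miR-3968 (0.12), miR-31-5p (0.17) and miR-361-5p (0.19), and for miR-423-5p miR-100-5p (0.19), miR-3968 (0.20) and miR-99a-5p (0.21). The nearest to miR-191-3p were miR-3968 (0.27), miR-378d (0.29) and let-7b-5p (0.29). Of these, all but miR-23b-3p were found in the RefSeq table and compared with it; let-7b-5p, miR-107-3p, miR-100-5p and miR-99a-5p are 1 edit away from another mature miRNA, so reads could be shared with it.

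A list of 20 other miRNAs often used as references gave the same count. All 20 were tested, and edgeR, DESeq2 and limma-voom each called 0 of 20, with 0 at an unadjusted p under 0.05 in edgeR. Their median log2 fold change was 0.02, with 11 positive and 9 negative. The sexes did not overlap for 3 of the 20, beside 21.6% of all tested miRNAs, and 6.76% of all tested miRNAs were called. Counts of 3 and of 0 among 20 are near what these shares give. Their SD of log2 CPM ran from 0.06 for miR-24-3p and 0.07 for miR-26a-5p to 0.32 for miR-30c-5p and 0.45 for miR-345-5p, with a median of 0.13. The 4 most abundant were, from the highest, miR-16-5p of the miR-15 seed family, miR-26a-5p, the let-7 member let-7a-5p and miR-30e-5p. Their log2 fold changes were 0.08, -0.09, -0.11 and 0.15 in that order. With miR-191-5p at 0.09, 7 of these 20 had a smaller SD, miR-16-5p (0.08) and let-7a-5p (0.08) among them.

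Scaling the libraries on the reference miRNAs, as is done for quantitative PCR, changed the sizes of the libraries relative to TMM. With the geometric mean of the 4 members that averaged at least 100 counts (miR-191-5p, miR-425-5p and both arms of miR-423), the log2 size of male replicate 2 lay 0.35 above its TMM size and that of male replicate 3 lay at -0.19. The range over the 6 libraries was 0.54. Scaling on miR-191-5p alone gave a range of 0.23, close to the 0.22 of total counts. The range was 0.46 for miR-425-5p, 0.75 for miR-423-3p and 0.99 for miR-423-5p, which put male replicate 2 at 0.62 and female replicate 2 at -0.37. An error in the size of a library moves every miRNA of that library alike.

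**Figure D4:**
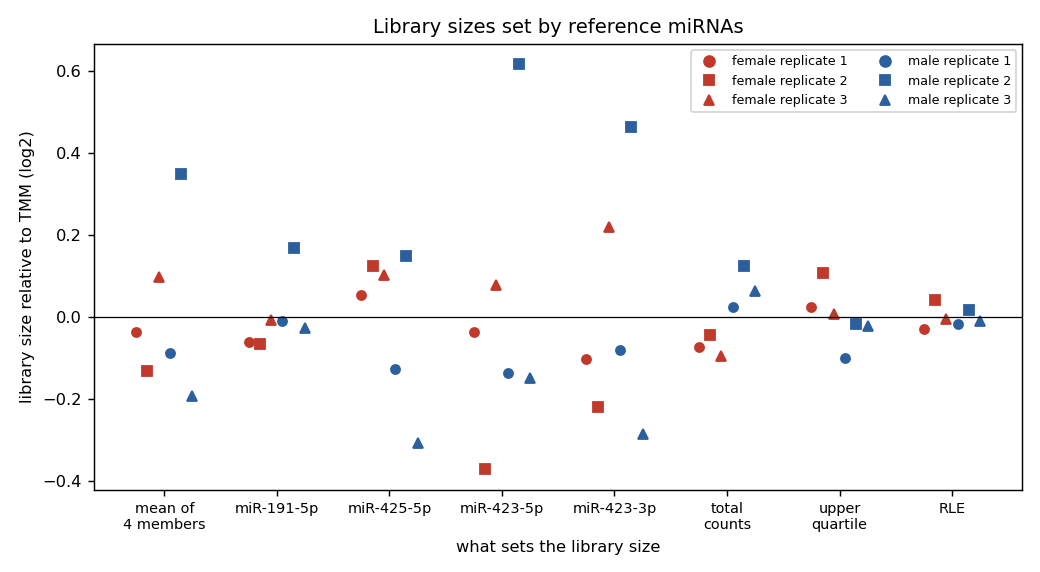
Log2 size of each library relative to its TMM size, centred at 0 over the 6 libraries, when the size is set by reference miRNAs or by other factors. Points spread over 0.23 with miR-191-5p and over 0.99 with miR-423-5p, where male replicate 2 (blue square) stands at 0.62.

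At the adjusted threshold, the comparison of females with males then called fewer miRNAs on each of the 5 reference scales than the 25 with TMM. The miRNAs that set a scale, whose value or mean value it fixes, are left out of the counts and of the shares given here. The mean of the 4 members called 8 (4 higher and 4 lower in females, 2.19% of those tested), all 8 among the 25 of TMM. Scaling on miR-191-5p called 18 (4.88%), all among the 25. With miR-423-5p there were 9 calls (2.44%) and with miR-423-3p 7 (1.90%), of which 7 and 7 were among the 25. With miR-425-5p there were 23 (6.23%), of which 17 were among the 25. The 6 calls gained on the miR-425-5p scale were all lower in females and included miR-125b-5p and miR-369-3p, both named after their values were seen. At an unadjusted p under 0.05 in edgeR, the count was 67 with TMM and 46 with the mean of the 4 members. It was 67 with miR-191-5p, 76 with miR-425-5p, 42 with miR-423-5p and 39 with miR-423-3p.

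These counts depended on single libraries. With the mean of the 4 members, leaving out male replicate 2 gave 27 calls, female replicate 1 gave 21 and male replicate 1 gave 14. On the miR-191-5p scale leaving out female replicate 1 gave 30, female replicate 2 gave 8, female replicate 3 gave 6 and male replicate 3 gave 6. On the miR-425-5p scale it was 79 without male replicate 2 and 14 without male replicate 3. Without male replicate 2 it was 17 on the miR-423-5p scale, where the count was 5 without female replicate 3, and 15 on the miR-423-3p scale. The count with TMM is not given here without single libraries, so whether it is steadier cannot be told.

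A change of scale moves all miRNAs nearly alike, so the balance of directions moves with it by construction. The share of calls higher in females was 48% with TMM (12 of 25), 61.1% with miR-191-5p (11 of 18), 17.4% with miR-425-5p (4 of 23), 77.8% with miR-423-5p (7 of 9) and 57.1% with miR-423-3p (4 of 7). It was 50% with the mean of the 4 members (4 of 8), and, with no reference miRNA involved, 65% with total counts (13 of 20) and 26.9% with upper-quartile factors (7 of 26). The median log2 fold change of all tested miRNAs moved from TMM by 0.08, -0.21, 0.18 and 0.03 on these 4 scales, and by 0.02 with the mean of the 4 members.

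The largest sex differences among the 5 miRNAs read on each scale kept their calls on every reference scale, and that of miR-21a-5p did not. The p53-induced miR-34a-5p, at a log2 fold change of 1.78 with TMM, stood between 1.57 on the miR-425-5p scale and 1.92 on the miR-423-5p scale. The hepatocyte-enriched miR-802-5p stood at 2.29 with TMM and between 2.06 and 2.42 on the same scales. For miR-1948-3p the values were -2.16 with TMM, -2.37 on the miR-425-5p scale and -1.95 on the miR-423-5p scale. All 3 passed the threshold on each of the 5 reference scales, and 6 miRNAs in all did so: these 3, miR-802-3p, miR-7081-5p and miR-741-3p.

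The injury-linked miR-21a-5p, at -0.60 with TMM (adjusted p = 0.00169, edgeR), passed on 2 of the 5 scales. It stood at -0.51 on the miR-191-5p scale (adjusted p = 0.0124, edgeR) and at -0.79 on the miR-425-5p scale (adjusted p = 0.000494, edgeR). With the mean of the 4 members it was -0.55, and its SE rose from 0.09 to 0.20 (adjusted p = 0.158, edgeR; 0.00286 without male replicate 2). On the miR-423-5p scale it was -0.37 (adjusted p = 0.916, edgeR) and on the miR-423-3p scale -0.52 (adjusted p = 0.591, edgeR). Relative to the median of all tested miRNAs on each scale, however, miR-21a-5p stayed between -0.59 with TMM and -0.54 with miR-423-3p.

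The most abundant liver miRNA, miR-122-5p, did not pass with TMM (log2 fold change -0.21, adjusted p = 0.053, edgeR) or on any of the 5 reference scales. It stood at -0.17 with the mean of the 4 members, -0.11 with miR-191-5p, -0.40 with miR-425-5p, -0.15 with miR-423-3p and 0.00079 (SE 0.31) with miR-423-5p. It passed with upper-quartile factors (adjusted p = 0.00763, edgeR) and with DESeq2 size factors (adjusted p = 0.0444, edgeR). Relative to the median of all tested miRNAs, miR-122-5p stayed, over TMM and the 5 reference scales, between -0.20 with TMM and -0.17 with miR-423-3p.

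**Figure D5:**
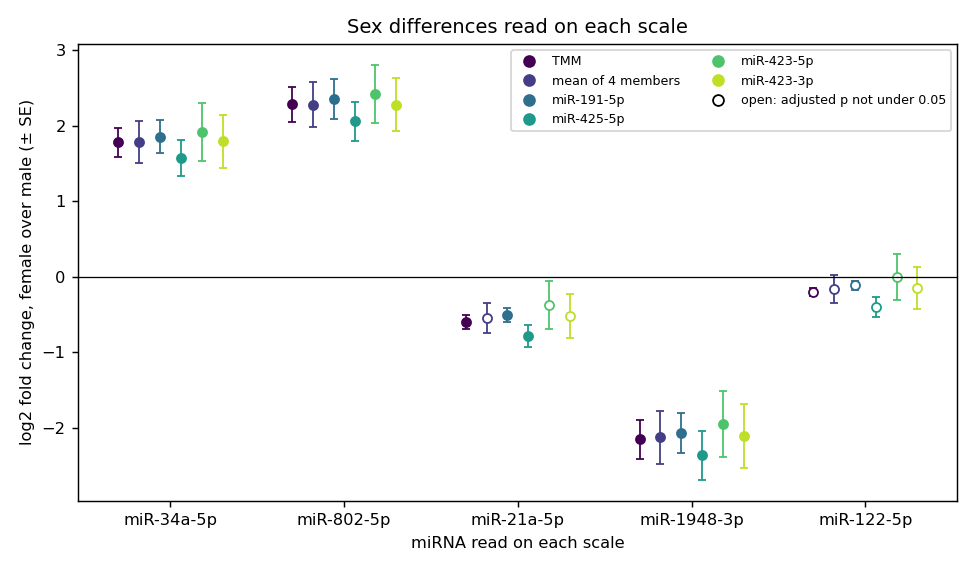
Log2 fold change, female over male, with its SE, of 5 miRNAs read on the TMM scale and on each reference scale; open points did not pass an adjusted p of 0.05 in edgeR. miR-34a-5p, miR-802-5p and miR-1948-3p pass on every scale shown, while miR-21a-5p is open with the mean of the 4 members and with either arm of miR-423.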

How the data were processed

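Small RNA was sequenced from 6 mouse livers, with a Qiagen kit for miRNA libraries per the labels. The table deposited by the authors gives estimated counts for each mature miRNA, unscaled. The submitters' processing notes name Partek, Bowtie and mm10 and no versions; read trimming and the treatment of multi-mapping reads or molecular identifiers are not stated there. Of 2045 rows, 138 exact repeats were dropped. Values were rounded (98.9% were whole already). Library totals ran from 3285249 to 16444675.

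Groups follow the sex in the labels, and replicates are numbered in accession order. Nothing further says how samples were separated, so p-values measure the spread between these samples. No batch is given; titles number the males before the females, so order and sex cannot be told apart. Females were tested against males over the whole table with edgeR 4.0.16 (R 4.3.3; quasi-likelihood, TMM, robust; filterByExpr with a minimum count of 10 and total of 15), which left 370 miRNAs. DESeq2 1.42.0 and limma 3.58.1 served as alternatives. Spread was the SD of log2 CPM with a prior count of 2. Ratios had 0.5 added to both counts and an exact permutation test. Reference scales replaced the TMM size by a member's count, or by the geometric mean of the 4 members with a mean of at least 100 counts. The test was checked on simulated data. The members and lists were chosen with earlier results of these data known. The rule for naming took the members; of the other references those called, the 4 most abundant and the 2 of smallest and 2 of largest SD; the 3 miRNAs most like each member; those sharing a member's seed; and miR-34a-5p, miR-802-5p, miR-21a-5p, miR-1948-3p and miR-122-5p as readouts of the scales.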

Additional observations from a re-analysis of the deposited data

How the results depend on the processing

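The count of 0 called among the 6 reference miRNAs, and of 0 among the 20 others, held in all 14 alternatives to each. With the filter of at least 50 counts in 3 libraries, 4 were called on the scale of the 4 members, 10 with miR-191-5p, 15 with miR-425-5p and 4 with miR-423-3p; this filter tests fewer miRNAs. On the miR-191-5p scale 31 were called with no filter and 9 without the robust option; the cause was not tested. Leaving out each library in turn gave 6 to 27 with the 4 members, 6 to 30 with miR-191-5p, 14 to 79 with miR-425-5p, 5 to 17 with miR-423-5p and 6 to 15 with miR-423-3p. With the scaling miRNAs left out of the fit, an alternative chosen after seeing the data, the 4 members gave 11, and the count on the other 4 scales did not move. Signs near 0 turned with total counts for miR-191-5p (0.052), miR-423-3p (0.066), miR-26a-5p (0.048) and let-7a-5p (0.030), and with upper-quartile factors for miR-425-3p (-0.055), miR-16-5p (-0.013) and miR-24-3p (-0.081). The filter of 50 counts gave miR-24-3p -0.021. With total counts the female and male levels of miR-425-5p no longer overlapped. Without a library, values ran from -0.075 to 0.11 for miR-425-3p, -0.38 to 0.055 for miR-423-5p, -0.23 to 0.17 for miR-423-3p, -0.023 to 0.039 for miR-24-3p and -0.12 to 0.27 for miR-30c-5p. The arm difference of miR-191 ran from -0.013 to 0.37. None of these passed the threshold. Without a library, the SD ran from 0.027 to 0.097 for miR-191-5p, 0.28 to 0.43 for miR-191-3p and 0.11 to 0.20 for miR-425-5p. It ran from 0.078 to 0.15 for miR-425-3p, 0.17 to 0.37 for miR-423-5p and 0.19 to 0.31 for miR-423-3p. With upper-quartile factors the SD of miR-191-5p was 0.127. The filter of 50 counts removed miR-191-3p and miR-345-5p, which have no value there. No paired analysis was possible because the labels give no replicate numbers that pair females with males. With 21 to 175 counts, depth limits what the 3p arms of miR-191 and miR-425 can show.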
